A study of Mus musculus with 6 samples.

Results

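Transcripts of the TGF-beta and BMP pathway were followed in immortalized mouse embryonic fibroblasts (MEFs) with and without YME1L, a protease of the inner membrane of mitochondria that uses ATP. The pathway was represented by 42 genes chosen by name, from ligands over receptors and secreted antagonists to SMAD proteins and ID target genes. All 42 were found among the 51499 assembled loci of the deposited count table, and none of these loci was merged with another gene. A test was possible for 37 of them, which were among the 13867 loci with enough counts.

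The experiment compared 3 WT cultures (genotype Yme1l fl/fl) with 3 Yme1l-/- cultures by RNA sequencing of poly(A)-selected transcripts. Cells of both genotypes came from mice with loxP-flanked Yme1l alleles, carried SV40 large T antigen, had gone through Cre transduction and were grown up as clones in medium with fetal bovine serum, without further treatment. Genotype and clone therefore cannot be told apart, and p-values measure the spread between cultures, which may be smaller than the spread between clones. How many clones the 3 cultures of a genotype represent is not given in the sources used here.

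Ligands of this family are secreted dimers that bring together type I and type II receptor kinases at the cell surface. TGF-beta and activin receptors phosphorylate SMAD2 and SMAD3, whereas BMP receptors phosphorylate SMAD1, SMAD5 and SMAD9, and both groups enter the nucleus with SMAD4. Secreted antagonists such as gremlin, noggin and follistatin bind ligands before they reach a receptor. In fibroblasts the TGF-beta branch is known for its effect on matrix genes and the BMP branch for its effect on ID genes.

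The libraries held 33180867 to 49351107 counted fragments, so that 1 fragment corresponded to 0.0196 to 0.0306 CPM (counts per 1e6 fragments of the scaled library size). Yme1l1, the symbol of the deleted gene in the files, had 6327, 6292 and 5968 fragments in WT and 1327, 1963 and 2067 in Yme1l-/-, a log2 fold change of -2.27 ± 0.05 (SE, n = 3 per genotype). Fold changes are given throughout as Yme1l-/- over WT, and a gene was called when the adjusted p of edgeR's quasi-likelihood test was under 0.05. With this rule 67.7% of all tested loci were called, 33.6% higher and 34.1% lower. Loci that shared a chromosome were shifted together, with median log2 fold changes from -0.44 on chromosome 12 to 0.59 on chromosome 15, and called members whose value moved by over 1.5 times or changed direction once that median was removed are given both ways. All 9 fibroblast markers were detected, but Thy1 had at most 6 fragments in a library, and their summed level was 10956 to 11513 CPM in WT and 6720 to 7203 CPM in Yme1l-/- libraries. Epithelial markers summed to 142 to 159 CPM in WT and to 2.75 to 3.68 CPM in Yme1l-/-, mostly from Krt19 and Krt18, while Cdh1 stayed below 1 CPM in both genotypes. Neural markers, almost all of it Nes, summed to 294 to 308 CPM in WT and to 91.1 to 96.3 CPM in Yme1l-/-. The 3 lists with low sums were higher in Yme1l-/- libraries, although Tie1, Adgre1, Myog and Myf5 had 0 fragments in every library. Endothelial markers summed to between 0.888 and 1.43 CPM in WT and between 1.67 and 2.00 CPM in Yme1l-/-, macrophage and blood cell markers to between 1.86 and 2.08 against between 4.03 and 4.71 CPM, and muscle markers to between 0.398 and 0.604 against between 2.2 and 3.2 CPM. In each of these lists 1 marker was called higher (Kdr, Cd68 and Des). The part of these markers in the results below was not tested. In such bulk samples fewer cells of a type and less RNA per cell cannot be told apart.

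Of the 37 tested pathway genes, 10 were higher and 22 were lower in Yme1l-/- cells (27.0% and 59.5%, against 33.6% and 34.1% of all tested loci), and 5 were not called. The median log2 fold change was -0.20, while that of all tested loci was 0.00. A change of at least 2-fold was measured for 11 genes (29.7%, against 17.7% of all tested loci). Bmp6, Acvr1b and Grem1 were higher (9.1% of all tested loci were higher by this rule), and Gdf5, Inhba, Tgfbr1, Bmpr1b, Tgfbr2, Acvr2b, Fstl3 and Fstl1 were lower (8.63% of all tested loci). The 3 Yme1l-/- libraries did not overlap with the 3 WT libraries for 31 of the 37 genes (83.8%, against 71.9% of all tested loci), with 10 above and 21 below WT. The genes that were not called were Tgfb2, Inhbb, Chrd, Smad5 and Id3.

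**Figure D1:**
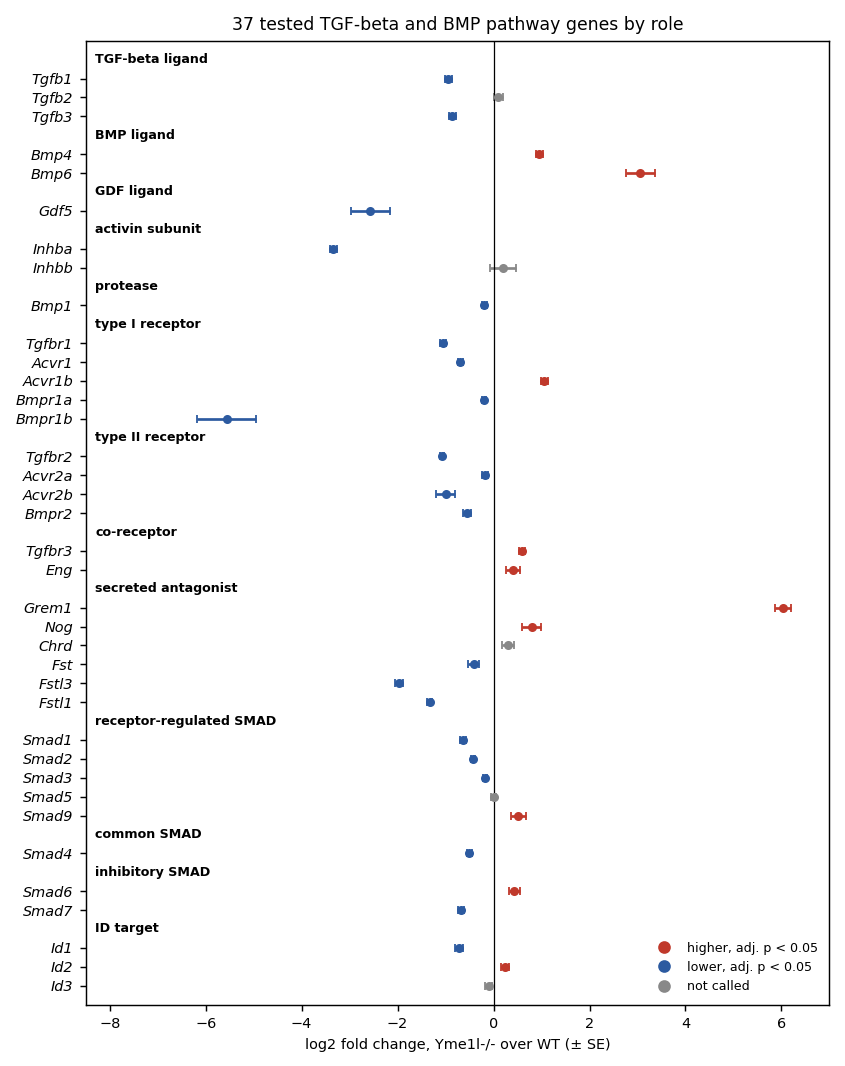
Log2 fold change of Yme1l-/- over WT (x axis, ± SE) for the 37 tested pathway genes, grouped by role, with genes called higher in red, called lower in blue and not called in grey. Grem1 lies farthest to the right at 6.03 and Inhba at -3.34, and most receptors lie left of 0. Bmpr1b rests on 2 fragments in Yme1l-/-, so its point depends on the fit.

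The bases in front of the transcription start are shown for Grem1, Inhba and Fstl3, a BMP antagonist, an activin subunit and an activin antagonist, because these 3 genes had the largest changes among members above 10 CPM (they were chosen after their values were seen). The sequences are the 250 bases before the start in RefSeq (GRCm38.p6), 5′ to 3′ on the strand of the gene. Capitals mark matches, on either strand, to the letters searched: GTCTAGAC and CAGACA (read as TGTCTG on the other strand), which SMAD3 and SMAD4 are known to bind, GGCGCC, a GC-rich form described for BMP-responsive SMADs, and TATAAA (read as TTTATA on the other strand), the TATA box. None of these patterns contains another.

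Grem1 (chr2:113758649-113758898, minus strand): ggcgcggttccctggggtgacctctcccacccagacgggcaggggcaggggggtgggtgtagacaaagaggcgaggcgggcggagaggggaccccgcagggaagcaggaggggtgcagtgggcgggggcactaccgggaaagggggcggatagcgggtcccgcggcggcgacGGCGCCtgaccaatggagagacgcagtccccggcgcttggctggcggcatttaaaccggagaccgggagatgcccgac
Inhba (chr13:16011601-16011850, plus strand): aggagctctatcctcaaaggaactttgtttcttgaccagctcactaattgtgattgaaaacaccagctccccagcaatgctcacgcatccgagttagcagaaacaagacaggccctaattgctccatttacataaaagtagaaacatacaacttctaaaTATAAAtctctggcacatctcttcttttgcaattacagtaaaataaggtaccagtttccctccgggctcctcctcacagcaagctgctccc
Fstl3 (chr10:79777024-79777273, plus strand): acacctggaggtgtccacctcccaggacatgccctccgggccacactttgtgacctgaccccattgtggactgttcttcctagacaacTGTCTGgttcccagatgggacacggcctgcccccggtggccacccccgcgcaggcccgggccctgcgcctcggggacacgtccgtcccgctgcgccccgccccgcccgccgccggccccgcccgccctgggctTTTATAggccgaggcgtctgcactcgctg

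The stretches of Grem1 and Fstl3 were rich in G and C (72% and 71.2%) and held 24 and 22 CpG dinucleotides, whereas that of Inhba had 43.2% G and C and 3 CpG. Over all 32851 promoters of the table the medians were 52.4% and 6 CpG. Grem1 had GGCGCC starting 78 bases before the start, Inhba had TATAAA at 91 bases, and Fstl3 had TGTCTG at 162 and TTTATA at 29 bases. Among the 29 pathway genes matched in the table, CAGACA was found for 5 (Bmp5, Bmpr1b, Fstl3, Tgfb2 and Tgfbr1, 17.2%, against 17.1% of all promoters) and TATAAA for 4 (Bmpr1b, Fstl3, Inhba and Tgfb2, 13.8%, against 12.4%). GGCGCC was found for 8 (Bmpr1a, Bmpr2, Chrd, Grem1, Id2, Smad5, Smad9 and Tgfbr1, 27.6%, against 9.59%), and these 8 held genes that were higher, lower and not called. GTCTAGAC was found for 0 of the 29 genes and for 0.167% of all promoters. A match describes the letters and not a site that is bound.

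Ligand transcripts moved in different directions. Tgfb1 and Tgfb3 were lower in Yme1l-/- cells, Bmp4 and Bmp6 were higher, and of the ligand genes among the 42 Inhba had the largest fitted decrease. The 3 TGF-beta genes encode the ligands of the SMAD2 and SMAD3 branch, which are secreted in a latent form. Tgfb1 was at 28.0, 28.9 and 28.5 CPM in WT and at 15.2, 13.6 and 15.8 CPM in Yme1l-/- (log2 fold change -0.94 ± 0.07, SE, adjusted p 3.77e-07). Tgfb3 went from 24.8 ± 2.12 to 13.7 ± 0.671 CPM (SD, n = 3), and its log2 fold change of -0.86 ± 0.08 (SE) became -0.42 once the median of its chromosome was removed. For both genes every Yme1l-/- library lay below every WT library. Tgfb2 was at 11.3 ± 0.482 CPM in WT and at 12 ± 1.23 CPM in Yme1l-/- cells (SD, n = 3) and was not called (log2 fold change 0.09 ± 0.09, SE, adjusted p 0.397), although it was called higher, at 0.25, with chromosome medians removed.

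Inhba encodes the beta A subunit, of which activin A is a dimer. It was at 295, 363 and 307 CPM in the WT libraries and at 32.0, 32.0 and 31.3 CPM in the Yme1l-/- libraries. The Yme1l-/- cultures were close to each other and far from WT, with 9.88% of the WT level left. Its log2 fold change of -3.34 ± 0.08 (SE, adjusted p 8.67e-11) stayed between -3.42 and -3.25 under all alternatives. Inhbb, which encodes the beta B subunit, was at 7.52, 12.6 and 6.58 CPM in WT and at 12.8, 9.02 and 8.85 CPM in Yme1l-/-. The genotypes overlapped, with WT replicate 2 and Yme1l-/- replicate 1 far above the other cultures of their genotype, and the gene was not called (log2 fold change 0.20 ± 0.28, SE, adjusted p 0.562). Without WT replicate 2 it was called higher, at 0.53.

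Of the 5 BMP ligand genes, Bmp4 and Bmp6 were expressed at a level that could be tested, and both were higher in Yme1l-/-. Bmp4 was at 13.9, 12.7 and 13.9 CPM in WT and at 24.6, 25.5 and 28.0 CPM in Yme1l-/- (log2 fold change 0.95 ± 0.07, SE, adjusted p 5.06e-07). Bmp6 had 4, 7 and 7 fragments in WT and 59, 88 and 63 in Yme1l-/-, so that it rose from 0.183 ± 0.0538 to 1.56 ± 0.278 CPM (SD, n = 3, log2 fold change 3.06 ± 0.31, SE, adjusted p 4.32e-06). In both genes the genotypes did not overlap. An exon part of Bmp6, 5.74% of its exon bases, is shared with Txndc5 on the opposite strand, a gene with 10465 to 16661 fragments per library and a log2 fold change of -0.01, and whether the counting used strand is not stated in the sources used here. The other BMP genes were near or at the limit of detection. Bmp2 had 0, 12 and 3 fragments in WT and 2, 11 and 13 in Yme1l-/-, Bmp5 had 1 fragment in 1 WT library, and Bmp7 had at most 2 fragments in any library.

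Among the growth and differentiation factors, Gdf5, a ligand known for its role in joint formation, was the gene with enough counts. It had 21, 24 and 30 fragments in WT and 7, 3 and 7 in Yme1l-/-, which gave 0.762 ± 0.144 and 0.132 ± 0.0704 CPM (SD, n = 3). The genotypes did not overlap and the log2 fold change was -2.57 ± 0.40 (SE, adjusted p 1.56e-04). Gdf6 had 0, 3 and 1 fragments in WT and 4, 4 and 3 in Yme1l-/-, and Gdf10 had 0 fragments in every library. Bmp1, which despite its name encodes a protease that cleaves procollagen and chordin, was at 98.4 ± 2.62 CPM in WT and at 86.0 ± 3.85 CPM in Yme1l-/- cells (SD, n = 3). This small decrease (log2 fold change -0.19 ± 0.05, SE, adjusted p 0.00432) was lost with chromosome medians removed, where it was -0.02.

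**Figure D2:**
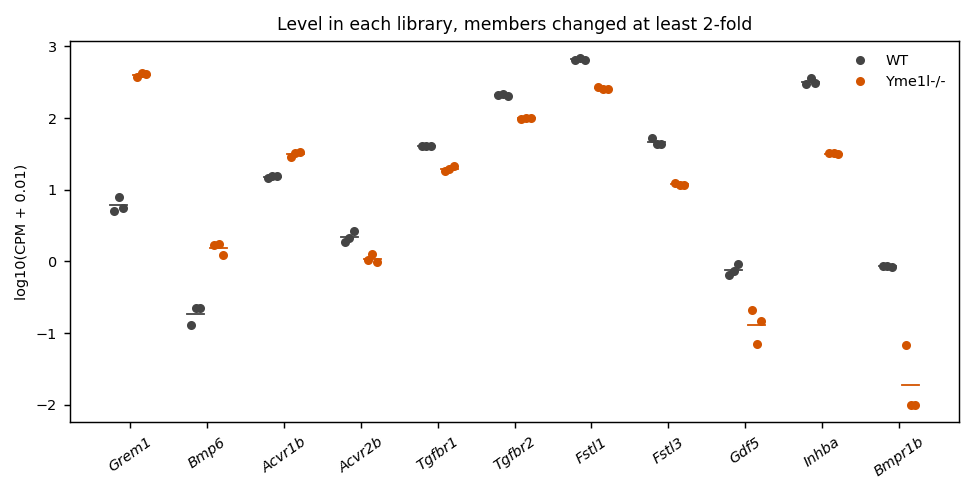
Level in each library, as log10(CPM + 0.01), of the 11 pathway genes that were called with a change of at least 2-fold, with WT in grey and Yme1l-/- in orange, 3 points per genotype and a line at the mean of the log values. The genotypes do not overlap for any of these genes, and Grem1 and Inhba are separated by the widest gaps among genes above 10 CPM. The 2 lowest points of Bmpr1b are libraries with 0 fragments.

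Receptor transcripts were mostly lower. Of the 9 type I and type II receptor genes all were called, 8 lower and 1 higher, where 67.7% of all tested loci were called and 34.1% were lower. The calls of Bmpr1a and Acvr2a among the 8 were lost with chromosome medians removed. The median log2 fold change was -0.69 for the 5 type I and -0.78 for the 4 type II genes. Tgfbr1 and Tgfbr2 encode the pair of kinases that TGF-beta brings together. Tgfbr1 was at 40.5, 40.6 and 41.2 CPM in WT and at 18.2, 19.7 and 21.2 CPM in Yme1l-/-, a log2 fold change of -1.05 ± 0.06 (SE, adjusted p 7.24e-08). Tgfbr2 was at 210.4, 219 and 201 CPM in WT and at 97.8, 101.5 and 98.7 CPM in Yme1l-/-, a log2 fold change of -1.08 ± 0.05 (SE, adjusted p 4.47e-09). The levels left were 48.4% and 47.3% of WT, and the gap between the genotypes was wider than the spread within each of them. With chromosome medians removed they were at -0.95 and -0.72 and were still called.

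The receptors for activin did not move as 1 group. Acvr1b encodes the type I receptor ALK4, which activin uses, and was the receptor gene that rose. It was at 14.4, 15.6 and 15.5 CPM in WT and at 28.8, 32.5 and 33 CPM in Yme1l-/-, a log2 fold change of 1.06 ± 0.07 (SE, adjusted p 1.76e-07). It lies on chromosome 15, where the median locus was at 0.59, and it was at 0.46 and still called after that median was removed. Acvr2b, a type II receptor for activin, was at 1.87, 2.08 and 2.60 CPM in WT and at 1.03, 1.27 and 0.961 CPM in Yme1l-/-, a log2 fold change of -1.0 ± 0.20 (SE, adjusted p 9.55e-04) that was -0.64 with chromosome medians removed. Acvr2a, the other activin type II receptor, was much closer to WT, at 23.4 ± 1.81 and 20.7 ± 0.726 CPM (SD, n = 3), and its libraries overlapped. Its adjusted p of 0.0428 ranged from 0.0128 to 0.158 over the alternatives, and its call was lost in 8 of 13 of them, among them each fit without 1 culture (-0.20 to -0.13) other than that without WT replicate 3.

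The receptors used by BMPs were lower to different degrees. Bmpr1a, which encodes the type I receptor ALK3, went from 158.7 ± 2.66 to 138 ± 5.51 CPM (SD, n = 3), and its log2 fold change of -0.20 ± 0.04 (SE) became -0.03 and was not called with chromosome medians removed. Bmpr2, the type II receptor gene of this branch, went from 132 ± 6.13 to 89.5 ± 10.1 CPM (SD, n = 3, log2 fold change -0.56 ± 0.08, SE) and Acvr1, which encodes the BMP type I receptor ALK2, from 45.8 ± 1.79 to 28.2 ± 1.43 CPM (SD, n = 3, log2 fold change -0.69 ± 0.06, SE). Bmpr1b, a type I receptor that GDF5 is known to prefer, was rare in WT and almost absent in Yme1l-/-. The WT libraries held 28, 28 and 27 of its fragments and the Yme1l-/- libraries 2, 0 and 0. Scaled to library size, the 83 WT fragments against 2 Yme1l-/- fragments gave a ratio of 57.5, with a 95% interval from 15.4 to 482 that covers counting error only, and the adjusted p was 9.93e-06.

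Both co-receptor genes among the 42 were higher in Yme1l-/-. Tgfbr3 encodes betaglycan, which presents TGF-beta2 and inhibin. It rose from 61.1 ± 3.25 to 92.4 ± 6.11 CPM (SD, n = 3), and the log2 fold change was 0.60 ± 0.06 (SE, adjusted p 4.53e-06). Eng encodes endoglin, best known from endothelial cells, and was at 2.49 ± 0.200 CPM in WT and at 3.29 ± 0.312 CPM in Yme1l-/- cells (SD, n = 3). Its log2 fold change was 0.40 ± 0.14 (SE), and its adjusted p of 0.0266 ranged from 0.0141 to 0.102 over the alternatives, with the call lost in 6 of 13, among them the fits without WT replicate 1 or 2 (0.34 and 0.40) and without Yme1l-/- replicate 1 or 3 (0.39 and 0.34). Eng shares 1.51% of its exon bases with Fpgs on the opposite strand, and Acvr2a 7.84% with Orc4, genes with 2052 to 3400 and 1837 to 3270 fragments per library that were not called. Of the 5 endothelial markers, Kdr was also called higher, with 33, 40 and 25 fragments in WT and 57, 94 and 73 in Yme1l-/- (log2 fold change 0.72 ± 0.22, SE, adjusted p 0.0132). Pecam1 had 0, 0 and 1 fragments in WT and 3, 6 and 10 in Yme1l-/-, Cdh5 and Tek had at most 5 and 6 in any library, and Tie1 had 0. The part of these markers in the value of Eng was not tested.

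The secreted antagonists split by family. The BMP antagonists Grem1 and Nog were higher in Yme1l-/-, and the follistatin family, Fst, Fstl3 and Fstl1, was lower. Grem1, whose protein gremlin binds BMP2 and BMP4, showed the largest fitted change of the 37 tested genes. It was at 4.98, 7.91 and 5.51 CPM in WT and at 377, 419 and 404 CPM in Yme1l-/-, from 165, 259 and 180 to 13183, 21132 and 20614 fragments. The lowest Yme1l-/- library was far above the highest WT library, and the fitted difference was 65.2-fold, a log2 fold change of 6.03 ± 0.16 (SE, adjusted p 1.01e-07) that stayed between 5.89 and 6.25 under all alternatives. Nog, which encodes noggin, was at 4.08, 2.38 and 3.21 CPM in WT and at 6.66, 5.73 and 4.49 CPM in Yme1l-/-. Its log2 fold change of 0.80 ± 0.20 (SE, adjusted p 0.00459) was 0.44 and not called with chromosome medians removed (chromosome 11 had a median of 0.36). Chrd, which encodes chordin, was at 2.69 ± 0.129 and 3.30 ± 0.289 CPM (SD, n = 3). Its libraries did not overlap but it was not called, with an adjusted p of 0.0685 (0.0334 to 0.201 over the alternatives), and without Yme1l-/- replicate 1 it was called higher, at 0.37.

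Follistatin and its relative FSTL3 bind activin, the product of Inhba. Fstl3 was at 51.9, 44.0 and 43.4 CPM in WT and at 12.3, 11.7 and 11.6 CPM in Yme1l-/-, which left 25.5% of the WT level (log2 fold change -1.97 ± 0.08, SE, adjusted p 2.44e-09). Its exons overlap those of Prss57 on the opposite strand over 47.3% of their bases, but Prss57 had at most 2 fragments in a library. Fst fell less, from 23.6 ± 4.23 to 17.7 ± 0.945 CPM (SD, n = 3, log2 fold change -0.42 ± 0.11, SE, adjusted p 0.00746), and was at -0.27 and still called without WT replicate 2. Fstl1, a secreted glycoprotein that shares the follistatin domain, was the most abundant of the 3 per transcript length in both genotypes and was at 644, 685 and 639 CPM in WT and 274, 256 and 251 CPM in Yme1l-/-. Its log2 fold change was -1.33 ± 0.05 (SE, adjusted p 2.12e-09), and the genotypes were clearly apart. In WT, replicate 2 held the highest value of Grem1, Inhba, Inhbb and Fst. Over tested loci it also differed more from the other WT cultures than these did from each other.

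Levels of different genes can be compared only per transcript length, for which the authors' FPKM was used, a single value per genotype without a spread. On this scale the pathway genes fell into different orders in the 2 genotypes. In WT, Inhba (78.8 FPKM) was the most abundant ligand gene, followed by Tgfb1 (13.8), Bmp4 (12) and Tgfb3 (7.48). In Yme1l-/- cells Bmp4 (26.3 FPKM) was the most abundant ligand gene, ahead of Inhba (8.24) and Tgfb1 (7.21). Grem1 went from 1.49 FPKM, a level below that of Nog (2.06), to 97.4 FPKM, above every ligand and receptor gene of the set. Fstl1, at 179.6 FPKM in WT and 72.8 FPKM in Yme1l-/-, fell below Grem1.

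The ratio of antagonist to ligand transcripts followed from these levels. The sum of Grem1, Nog and Chrd was 0.361 of the sum of the 5 BMP ligand genes in WT (4.36 against 12.1 FPKM) and 3.8 of it in Yme1l-/- (102.0 against 26.9 FPKM). For the activin branch, the sum of Fst and Fstl3 was 0.462 of the sum of Inhba and Inhbb in WT (37.4 against 80.9 FPKM) and 1.44 of it in Yme1l-/- (15.3 against 10.7 FPKM). Antagonist transcripts thus exceeded those of the ligands in Yme1l-/- and not in WT in both branches. In the first branch antagonist and ligand transcripts both increased, and in the second both decreased. The ratio of Tgfbr2 to Tgfbr1, at 5.60 in WT and 5.46 in Yme1l-/-, and that of Bmpr2 to Bmpr1a, at 0.311 and 0.240, moved little by comparison. These ratios describe transcripts and not secreted protein.

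**Figure D3:**
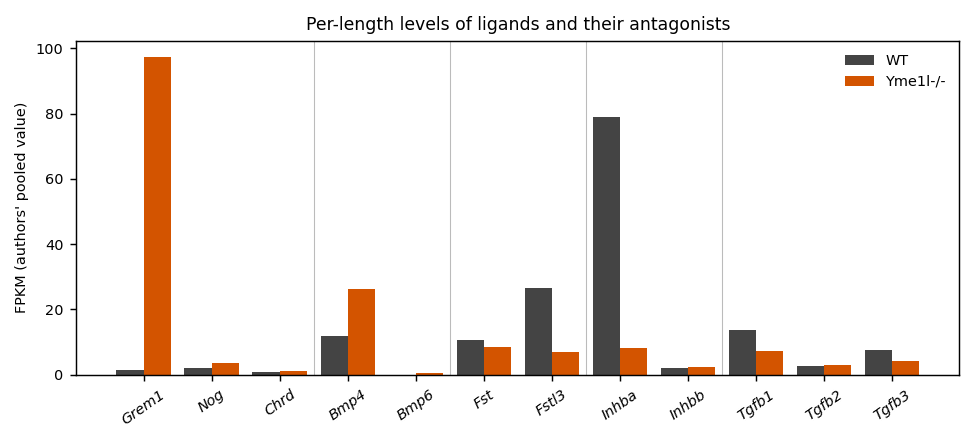
Authors' FPKM per genotype (y axis, 1 value per genotype, WT in grey, Yme1l-/- in orange) for BMP antagonists, BMP ligands, activin antagonists, activin subunits and TGF-beta ligands, separated by vertical lines. Grem1 rises from 1.49 to 97.4 and Inhba falls from 78.8 to 8.24.

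Transcripts of the SMAD proteins changed by less than 2-fold. Among the receptor-regulated SMADs of the TGF-beta and activin branch, Smad2 went from 76.7 ± 0.413 to 57.1 ± 1.46 CPM (SD, n = 3, log2 fold change -0.43 ± 0.04, SE). Smad3 went from 79.7 ± 2.66 to 70.4 ± 3.13 CPM (SD, n = 3), and the log2 fold change was -0.18 ± 0.05 (SE). Its direction depended on the chromosome, since Smad3 lies on chromosome 9 with a median of -0.36 and was called higher, at 0.18, after removal of that median. With upper-quartile scaling Smad3 was at -0.12 and not called (adjusted p of edgeR's test 0.0547). In the BMP branch, Smad1 was lower (-0.63 ± 0.06), Smad5 was at 0.00 ± 0.05 and not called, and Smad9 was higher (0.51 ± 0.16, log2 fold change ± SE), with a call that was lost without WT replicate 1, where the value was 0.47 and the adjusted p of edgeR's test 0.0509. With chromosome medians removed Smad1 and Smad2 were at -0.32 and -0.22 and still called. Smad4, the partner of both branches, fell from 94.0 ± 4.38 to 66.2 ± 0.577 CPM (SD, n = 3, log2 fold change -0.51 ± 0.05, SE), and was at -0.30 and still called with chromosome medians removed.

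The inhibitory SMADs went in opposite directions. Smad7, which inhibits TGF-beta and BMP receptors and is itself a target of the pathway, fell from 46.3 ± 2.66 to 29.1 ± 1.45 CPM (SD, n = 3, log2 fold change -0.67 ± 0.06, SE, adjusted p 1.86e-06). Smad6, which acts mainly on the BMP branch, rose from 14.9 ± 2.06 to 20.1 ± 2.51 CPM (SD, n = 3, log2 fold change 0.43 ± 0.11, SE, adjusted p 0.00683). Smad6 and Smad3 lie 195.1 kb apart on chromosome 9 and their calls differed in direction, but with the median of that chromosome removed both were called higher, Smad6 at 0.79 and Smad3 at 0.18.

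The ID genes, which encode inhibitors of basic helix-loop-helix factors and are induced by BMP in many cells, did not change together. Id1 was at 144, 128 and 146 CPM in WT and at 95.4, 79.2 and 79.1 CPM in Yme1l-/-, and every Yme1l-/- library was below WT (log2 fold change -0.72 ± 0.08, SE, adjusted p 1.54e-05). Id3 was at 182 ± 13.8 and 170.2 ± 16.8 CPM (SD, n = 3) and was not called (log2 fold change -0.10 ± 0.08, SE), but it was called lower, at -0.18, without Yme1l-/- replicate 1. Id2 was at 45.5, 41.7 and 55.0 CPM in WT and at 56.6, 53.4 and 57.8 CPM in Yme1l-/-, so the genotypes overlapped. Its log2 fold change of 0.24 ± 0.09 (SE) had an adjusted p of 0.0374 (1.04e-04 to 0.13 over the alternatives), and 4 of the 6 fits without 1 culture gave no call (0.21 without WT replicate 1, 0.15 without WT replicate 2, 0.23 without Yme1l-/- replicate 1 and 0.22 without Yme1l-/- replicate 3). With chromosome medians removed it was at 0.68 and called.

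To see whether the rest of the pathway moved as the 42 genes did, 6 further lists with 91 genes were examined, of which 69 were tested. These lists were also chosen with earlier results of these data known, so they are not an independent check. Of these 69, 15 were higher and 39 were lower (21.7% and 56.5%, against 33.6% and 34.1% of all tested loci), and the median log2 fold change was -0.34. A change of at least 2-fold was measured for 23 genes (33.3%, against 17.7% of all tested loci), 5 higher and 18 lower, where 9.1% and 8.63% of all tested loci were higher and lower by this rule. The share called, against 67.7% of all tested loci, was 50% for other ligands, 71.4% for other receptors and co-receptors, 94.1% for extracellular regulators, 75% for intracellular regulators, 92.9% for TGF-beta targets and 57.1% for BMP targets. The loci of Gdf1 and Pcsk6 were merged with other genes. Col1a1 and Fn1 are counted here and also among the fibroblast markers, and 6 of the 9 markers of that list were lower and 1 was higher.

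Of other ligands (8 of 20 tested, median 0.19), 2 were higher and 2 lower (25% each, against 33.6% and 34.1% of all tested loci). Bmp3, a BMP relative that can oppose other BMPs, had 1, 10 and 10 fragments in WT. It had 267, 447 and 419 in Yme1l-/- (log2 fold change 5.25 ± 0.32, SE). Gdf7 had 358, 304 and 274 fragments in WT and 0 in every Yme1l-/- library, which is at least 111-fold lower when computed against 3 fragments per library. Bmp8a fell by 3.09 on the log2 scale, from 1.32 ± 0.565 to 0.141 ± 0.0991 CPM (SD, n = 3). Other receptors and co-receptors (7 of 10 tested) had a median of -1.07, and 0 were higher (33.6% of all tested loci). Lower genes numbered 5 (71.4%, against 34.1% of all tested loci). These included Bambi, a receptor-like protein without a kinase (log2 fold change -4.82 ± 0.30, SE), Rgma, a BMP co-receptor (-1.22 ± 0.07), Neo1, the receptor that binds RGM proteins (-1.07 ± 0.05), and Cd109, which binds TGF-beta (-1.15 ± 0.04).

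Extracellular regulators (17 of 22 tested) were lower in 13 cases (76.5%, against 34.1% of all tested loci). They were higher in 3 (17.6%, against 33.6%), with a median log2 fold change of -0.58. Tll1, a protease of the Bmp1 family, fell from 1229, 1136 and 1212 fragments to 5, 9 and 5 (log2 fold change -7.99 ± 0.13, SE). Lrrc32, which holds latent TGF-beta at the cell surface, and Ltbp4, which stores it in the matrix, had log2 fold changes of -3.37 ± 0.16 and -2.18 ± 0.07 (SE). Nbl1, which belongs to the DAN family as Grem1 does, was at -1.16 ± 0.09 (SE). Its mean level was 22.3 ± 1.26 CPM in the WT cultures against 9.97 ± 0.948 CPM in the Yme1l-/- cultures (SD, n = 3). Bmper, a chordin-like protein that binds BMPs, was the regulator that rose at least 2-fold (1.04 ± 0.08, SE).

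Intracellular regulators were all tested, and 4 of 16 were higher and 8 lower (25% and 50%, against 33.6% and 34.1% of all tested loci, median -0.16). A change of at least 2-fold was measured for 12.5% of them, against 17.7% of all tested loci. Pmepa1, a TGF-beta-induced inhibitor of SMAD2 and SMAD3, fell from 9383, 9614 and 8579 fragments to 897, 1243 and 1127 (log2 fold change -3.54 ± 0.07, SE), and Tgif1, a SMAD co-repressor, was at -1.18 ± 0.11 (SE). The other 14 stayed within 2-fold, among them the ubiquitin ligase genes Smurf1 and Smurf2, which were not called.

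Of the genes known as TGF-beta targets (14 of 14 tested), 9 were lower (64.3%, against 34.1% of all tested loci). Higher were 4 of them (28.6%, against 33.6%), and the median log2 fold change was -0.61. Those with the largest decreases were Nox4, which encodes an NADPH oxidase (-4.68 ± 0.23, SE), Angptl4 (-3.75 ± 0.21), Ctgf, a matrix-associated growth factor (-2.38 ± 0.11), and Tgfbi, an adhesion protein (-1.76 ± 0.28). Ctgf went from 938 ± 24.2 to 180.2 ± 29.6 CPM (SD, n = 3). The 4 genes of this list that were higher were Acta2, Col1a1, Snai2 and Tagln. Acta2, which encodes smooth muscle actin, rose from 228 ± 14.9 to 698 ± 81.3 CPM (SD, n = 3, log2 fold change 1.62 ± 0.08, SE). Col1a1, Snai2 and Tagln had log2 fold changes of 0.43 ± 0.06, 0.34 ± 0.08 and 0.30 ± 0.09 (SE). With chromosome medians removed, Col1a1 was at 0.07 (chromosome 11 had a median of 0.36), Snai2 at 0.36 and Tagln at 0.66. Acta2 stayed at least 2-fold higher. Calls after this removal are not given for single genes of the further lists. Des, the muscle marker that was called, went from 0.436 ± 0.0333 to 2.65 ± 0.506 CPM (SD, n = 3), and its part in the value of Acta2 was not tested.

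Of the genes known as BMP targets, 7 of 9 were tested, 2 were higher and 2 were lower (28.6% each, against 33.6% and 34.1% of all tested loci) and 3 were not called, with a median log2 fold change of 0.15. Atoh8, a basic helix-loop-helix factor, rose from 17.2 ± 3.57 to 51.2 ± 3.77 CPM (SD, n = 3, log2 fold change 1.57 ± 0.14, SE), and Id4 was at 1.06 ± 0.14 (SE). Msx1 and Runx2 were lower, at -0.73 ± 0.12 and -0.38 ± 0.05 (SE). The ID family therefore contained a member at least 2-fold higher (Id4), a member that was lower (Id1) and a member that was not called (Id3).

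**Figure D4:**
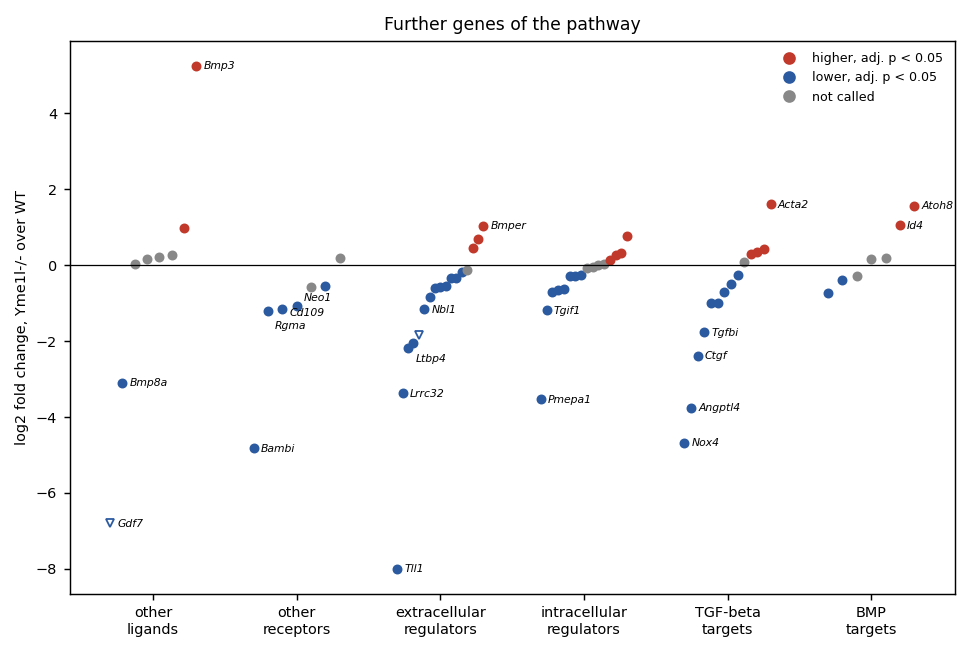
Log2 fold change of Yme1l-/- over WT (y axis) for the 69 tested genes of 6 further pathway lists, each point a gene, with names given to the genes described in the text that were called, changed at least 2-fold and reached 1 CPM. Open triangles mark the 2 genes with 0 fragments in every Yme1l-/- library, drawn at the bound for 3 fragments per library. Points of receptors and extracellular regulators lie mostly below 0, while those of BMP targets lie on both sides.

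The position of the genes gave a last comparison, made after their values were seen, for the 11 pathway genes with at least 2-fold change (genes placed by GENCODE M21, GRCm38). None of the tested neighbours of Grem1 within 1 Mb on chromosome 2 was higher by at least 2-fold. Fmn1, which ends 29.4 kb from Grem1 and is known to contain enhancers of Grem1 in the limb, was at -3.20 ± 0.08 (log2 fold change ± SE, from 142 to 15.5 CPM), and Arhgap11a, 72.8 kb away on the other side, was at 0.05 ± 0.06. Around Inhba the nearest tested gene was Gli3, at a distance of 281.8 kb and a log2 fold change of -0.22 ± 0.06. Bmpr1b, in contrast, lies 2.2 kb from Unc5c, which also was almost lost (-5.86 ± 0.28, from 10.3 to 0.166 CPM), whereas Pdlim5 on the other side, 70.2 kb away, was at 0.17 ± 0.05. Tgfbr1 lies 40.1 kb from Col15a1, at -5.82 ± 0.49, and 50.1 kb from Alg2, at -0.14 ± 0.06. The nearest tested gene of Tgfbr2 that is not a predicted gene was Rbms3, 397.4 kb away and at -1.92 ± 0.08. For the other genes of the 11, nearest neighbours were within 2-fold of WT on at least 1 side.

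**Figure D5:**
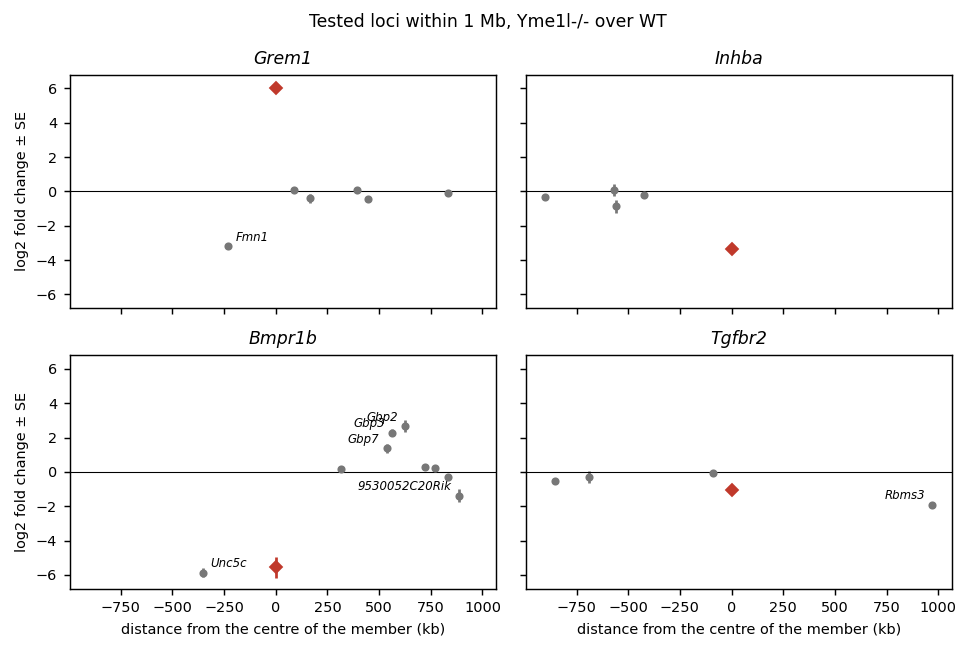
Log2 fold change (y axis, ± SE) of tested loci within 1 Mb of Grem1, Inhba, Bmpr1b and Tgfbr2, by the distance between gene centres in kb (x axis), with the pathway gene as a red diamond and other loci in grey, named where they changed at least 2-fold. Grem1 is at 6.03 while the other loci of its panel are near or below 0, with Fmn1 at -3.20, and Bmpr1b has Unc5c at a like value beside it.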

How the data were processed

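Per the labels and the study's methods, the authors made stranded poly(A) libraries, mapped read pairs with HISAT2 2.0.4 to GRCm38 (mm10), assembled transcripts with StringTie 1.3.3 and compared genotypes with Cuffdiff 2.2.1. The deposited count table holds raw fragment counts per assembled locus, without normalization, and counting of multi-mapped fragments or of strand is not given in the sources used here. The authors' second deposited table holds FPKM as 1 pooled value per genotype, which was printed without a test, and the authors' own fold changes, p-values and q-values, which were not used.

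Loci were filtered with filterByExpr (minimum count 10) in edgeR 4.0.16 (R 4.3.3), scaled with TMM, and compared with edgeR's quasi-likelihood test (robust, two-sided, no covariate). P-values were adjusted (Benjamini-Hochberg) over the 13867 loci tested and called under 0.05. SE was derived from the fold change and the F statistic. The script was tested on simulated data. A gene with at most 3 counts in every library of a genotype was at the floor. Intervals and floors cover counting error only.

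The 42 members and the lists were chosen with earlier results of these data known. Per-library values were given for called members with at least 2-fold change and for others where cultures or groups are compared. Genes of the further lists were named when called, changed at least 2-fold and averaging at least 1 CPM in the genotype with the higher level, and single list members outside this rule (Tagln, Col1a1, Snai2, Msx1, Runx2, Smurf1 and Smurf2) and the neighbours were chosen after their values were seen. Some genes of the further lists were counted but are not reported by name. Alternatives were RLE or upper-quartile scaling, DESeq2 1.42.0, no filter beyond 1 count, at least 10 counts in every sample, chromosome medians removed, a replicate block, and fits without each single culture. Within a genotype, counts varied beyond sampling noise (chi-square per degree of freedom 8.71 to 38.5), so no library was a duplicate. WT replicate 2 was at 35.7 and 38.5 against WT replicates 1 and 3, which were at 12.9 against each other. Yme1l-/- replicate 1 was at 21.7 and 17.1 against Yme1l-/- replicates 2 and 3, which were at 8.71 against each other.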

Additional observations from a re-analysis of the deposited data

How the results depend on the processing

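Of the 37 tested pathway genes, 24 kept their direction and their side of the threshold under all 13 alternatives (12 for Bmp6, Gdf5 and Bmpr1b, which a minimum of 10 counts in each sample removed). The count of members called higher lay between 7 and 11 and that called lower between 18 and 22, and leaving out each culture in turn gave 7 to 10 higher and 21 to 22 lower. The members' median log2 fold change, -0.20, was -0.14 with upper-quartile scaling, where the median of all loci was 0.06, and -0.16 with chromosome medians removed. It was -0.24 to -0.18 when cultures were left out. Among the other ligands 1 gene was called with a minimum of 10 counts in each sample, against 4 in the reported fit, because that filter also removes genes that are low in 1 genotype and not in the other (Bmp3, Gdf7 and Bmp8a). Reversals concerned Smad3, called higher at 0.18 with chromosome medians removed, and Smad5, which was never called and was at -0.0026 with RLE scaling, -0.0023 with DESeq2, -0.0038 without a filter, -0.0786 with chromosome medians removed and -0.0216 to 0.0404 when cultures were left out. With chromosome medians removed, Bmp1, Bmpr1a, Nog and Acvr2a were no longer called, and Tgfb2 was.

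The replicate numbers did not pair the samples. Over loci, the deviations of cultures with the same number had correlations of 0.22, -0.19 and 0.05, and with the replicate block 10 members were higher and 22 lower, without a changed call. Depth limits the rare members. For Bmp2, Bmp5, Bmp7, Gdf6 and Gdf10 a difference was not detectable at this depth. Whether the chromosome-wide shifts belong to the clones or to the loss of YME1L cannot be told apart.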
